A study of Mus musculus with 32 samples.

Results

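The Igkv10 family of mouse Vκ segments was followed through the Igκ rearrangement repertoire of hybrid pre-B cells. Its members, Igkv10-96, Igkv10-95 and Igkv10-94, are the 3 rows whose name starts with Igkv10 out of the 112 segments counted. Igkv10-96 and Igkv10-95 were read from both parental alleles, whereas Igkv10-94 was read from the B6 allele alone. Rearranged transcripts were sequenced by VJ-seq, in which cDNA is primed from the κ constant region, so that each read joins a V segment to a J segment. The cells carry a C57BL/6 (B6) and a Castaneous (Cast) copy of the locus, and reads were assigned to an allele through sequence differences between these. Clones 3, 4, 8, B52 and E9-3 are pre-B lines from B6/Cast bone marrow, each of them the descendants of a single cell, grown with IL-7 on stromal cells and then kept without IL-7 for 48 h to start rearrangement. A pre-B pool of the same cross was sequenced beside them, and clone 4 was also sequenced at 12, 24, 36 and 48 h without IL-7 in a separate time course. The pool is labelled as cultured cells and listed at 48 h, but the methods describe bone marrow cells from a female of 12 weeks and give no time for it. Late passages of clone 3 are described in the study as having lost most of the Cast V region. There are 10 libraries, 1 for each clone, the pool and each time, so that clone 4 at 48 h was sequenced in both experiments and no other condition was repeated. All groups share the hybrid background.

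During κ rearrangement the recombinase cuts at a signal sequence beside a V segment, made of a heptamer, a spacer and a nonamer, and joins the segment to a J segment upstream of Cκ. Segments on the same strand as Cκ are joined by deletion of the DNA in between, and segments on the opposite strand by its inversion. A pre-B cell makes a light chain from such a join, and a cell whose first join fails can rearrange again.

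All 3 segments lie on chromosome 6, given here on build mm10 with the GENCODE M21 annotation. Igkv10-96 is at chr6:68631963-68632442 on the minus strand, Igkv10-95 at chr6:68680379-68680848 on the plus strand and Igkv10-94 at chr6:68704508-68704978 on the minus strand. Igkv10-96 and Igkv10-95 are 47936 bases apart, and Igkv10-95 and Igkv10-94 are 23659 bases apart. The next segment towards Cκ, Igkv19-93, begins 31318 bases beyond Igkv10-94. Cκ is on the plus strand, so that Igkv10-95 rearranges by deletion and the other members by inversion. All are annotated as functional genes with 2 exons, a leader exon and a V exon of 298 bases.

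The recombination signals are shown because they are what the recombinase reads, each after the last 20 bases of the V exon, with the heptamer and nonamer in capitals. They lie at chr6:68631935-68631982, chr6:68680829-68680876 and chr6:68704480-68704527 on the strand of the gene.
Igkv10-96: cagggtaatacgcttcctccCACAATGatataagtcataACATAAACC
Igkv10-95: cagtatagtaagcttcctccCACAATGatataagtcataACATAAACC
Igkv10-94: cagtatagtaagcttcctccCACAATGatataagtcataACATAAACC

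The 28 bases of the signal were identical in the 3 members, and none of the other segments found by name (111 in all) carried the same signal. The heptamer CACAATG stood at the end of 6 of the 111 segments (5.41%), against CACAGTG at 92 (82.9%). The nonamer ACATAAACC was found at 26 segments (23.4%) and ACAAAAACC at 36 (32.4%). These were searched at the fixed positions after the V exon, on the strand of the gene. The differences in use described below are thus between segments with the same B6 signal, and the Cast signals were not examined. The octamer ATTTGCAT, a promoter element of immunoglobulin genes, was found in all 3 members 85 bases before the start codon. Within 250 bases of the start codon 71 of 98 segments with an annotated start codon held it (72.4%), and 1 held its reverse complement ATGCAAAT (1.02%).

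The V exons are shown because reads of these segments can be told apart only where they differ. Capitals mark the 22 of 298 positions at which the members are not all alike, and the exons lie at chr6:68631963-68632260, chr6:68680551-68680848 and chr6:68704508-68704805 on the strand of the gene.
Igkv10-96: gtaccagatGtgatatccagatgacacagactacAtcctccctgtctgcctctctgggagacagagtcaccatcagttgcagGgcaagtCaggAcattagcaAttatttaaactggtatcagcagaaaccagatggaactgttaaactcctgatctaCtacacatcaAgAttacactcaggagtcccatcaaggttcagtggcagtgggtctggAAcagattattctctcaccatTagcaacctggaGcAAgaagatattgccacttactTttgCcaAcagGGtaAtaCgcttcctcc
Igkv10-95: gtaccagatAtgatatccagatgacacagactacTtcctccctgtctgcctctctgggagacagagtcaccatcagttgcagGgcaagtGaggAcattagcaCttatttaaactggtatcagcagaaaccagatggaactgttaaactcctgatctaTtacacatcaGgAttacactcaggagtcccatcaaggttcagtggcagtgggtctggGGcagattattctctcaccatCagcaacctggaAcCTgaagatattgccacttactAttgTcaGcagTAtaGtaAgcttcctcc
Igkv10-94: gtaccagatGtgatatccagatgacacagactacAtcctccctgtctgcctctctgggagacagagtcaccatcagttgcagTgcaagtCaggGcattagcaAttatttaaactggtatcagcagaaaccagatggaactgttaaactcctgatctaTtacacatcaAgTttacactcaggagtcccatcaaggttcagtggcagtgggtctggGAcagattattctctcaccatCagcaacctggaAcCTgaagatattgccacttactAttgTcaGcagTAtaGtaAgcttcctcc

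Igkv10-96 differed from Igkv10-95 at 19 bases (93.6% identity) and from Igkv10-94 at 16 (94.6%), whereas Igkv10-95 and Igkv10-94 differed at 9 (97.0%). In the last 100 bases of the V exon, nearest to the join, Igkv10-95 and Igkv10-94 differed at 1 base, and Igkv10-96 differed from them at 13 and 12. How reads were divided between Igkv10-95 and Igkv10-94 is therefore less certain than how they were divided between either of these and Igkv10-96. The closest V exons outside the family, Igkv9-124 and Igkv9-123, were between 80.1% and 82.8% identical over the aligned bases. These values hold for the B6 sequence only.

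Reads assigned to an allele numbered from 34291 to 320951 in the libraries of the 48 h table and from 1174 to 10958 in the time course. The B6 allele held between 51.2% and 71.8% of the reads in the clones, 57.4% in the pool and between 76.2% and 84.2% in the time course, where the Cast allele came down to 241 reads at 24 h and 274 at 12 h. The tables hold V segments only, so that the labelled pre-B identity could not be checked against marker genes. Values below are the percent of all reads of a library, the percent of the reads of an allele in that library, or the B6 share, which is the percent of a segment's reads on the B6 allele. Brackets give 95% Wilson intervals. As molecular identifiers were not used, these intervals and the detection limit of 3 reads cover counting error only, and a test on reads compares libraries and not clones.

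**Figure D1:**
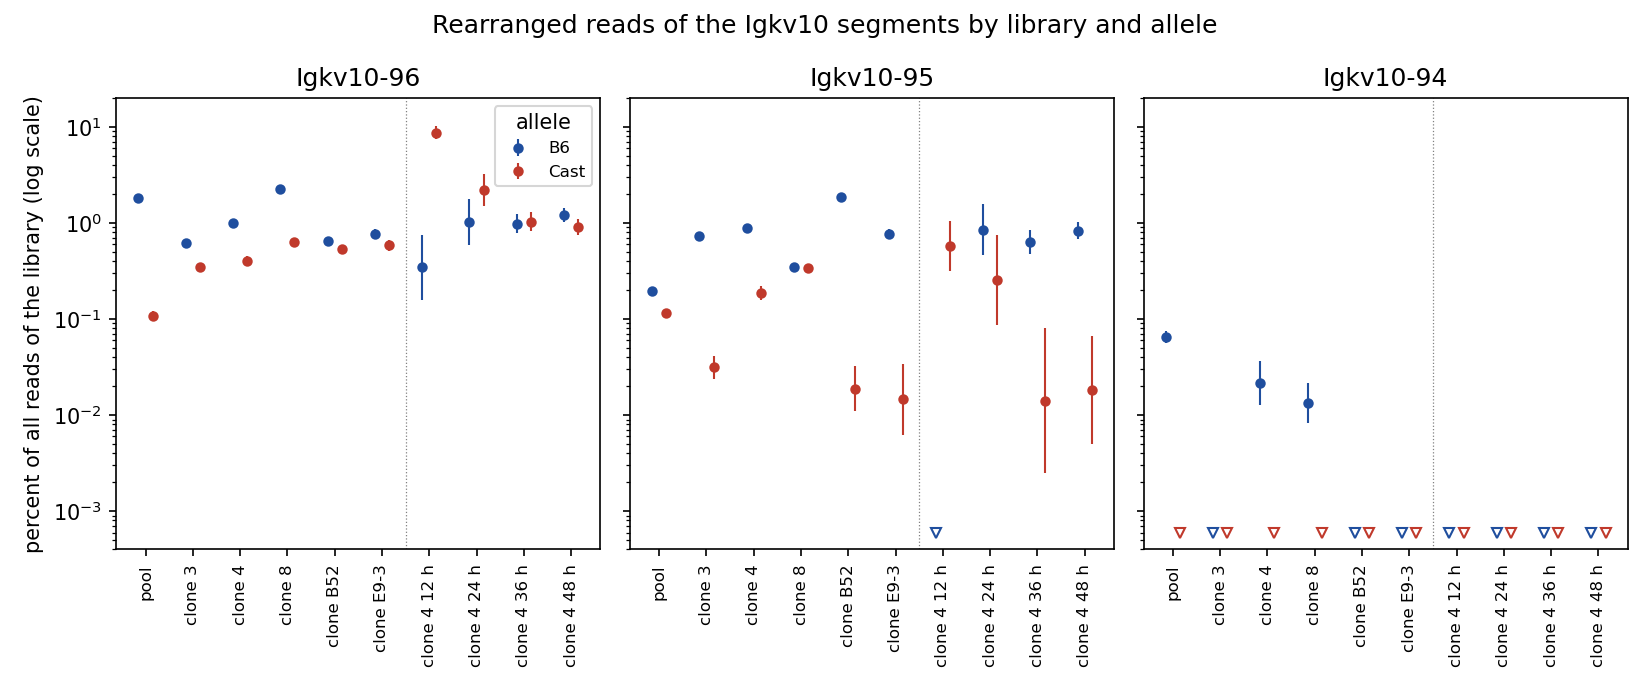
Percent of all reads of the library (log scale) for Igkv10-96, Igkv10-95 and Igkv10-94 on the B6 (blue) and Cast (red) alleles in 10 libraries, with 95% Wilson intervals. Open triangles at the foot of the axis stand for 0 reads, and the dotted line separates the 48 h table from the time course. Igkv10-96 was read on both alleles everywhere, Igkv10-95 fell to between 5 and 52 Cast reads in clones 3, B52 and E9-3, and Igkv10-94 was read on B6 in 3 libraries.

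The family made up between 1.74% and 3.59% of the reads in the 5 clones (median 2.49%) and 2.29% in the pool. Of its 15838 B6 and 3842 Cast reads over the 10 libraries, Igkv10-96 held 11073 and 2859, Igkv10-95 held 4526 and 983, and Igkv10-94 held 239 and 0. The B6 share of the summed family lay between 71.9% and 82.0% in the clones and was 90.2% in the pool. The SD over the clones was 4.09 points for the sum, 9.75 for Igkv10-96 and 20.5 for Igkv10-95, and a sum averages over its members.

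Igkv10-96 was the most read member in 4 of the 5 clones and in all 4 libraries of the time course. Clones 3, 4, 8, B52 and E9-3 had 0.973%, 1.39%, 2.89%, 1.17% and 1.36% of their reads on it, a mean of 1.56% ± 0.764 (SD, n = 5), and the pool had 1.91%. Clone 8 stood above the other clones and above the pool. The intervals of clone 4 (1.31% to 1.49%) and clone E9-3 (1.24% to 1.48%) overlapped, as did those of clone E9-3 and clone B52 (1.10% to 1.26%). Overlap is no test of a difference, and these neighbours in the order were not tested against each other.

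The B6 share of Igkv10-96 in the same order of clones was 64.1%, 71.1%, 78.0%, 54.7% and 56.8%. In the pool it was 94.3% (93.7% to 94.9%), from 5784 B6 and 347 Cast reads. The pool thus stood above all 5 clones, the nearest of which was clone 8 with 2684 B6 and 756 Cast reads. Of 92 segments compared, 15 (16.3%) had a B6 share in the pool above that of all 5 clones, and 17 (18.5%) had one below.

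Scaled to the reads of each allele, the pool and the clones differed in opposite directions on the B6 and Cast alleles of Igkv10-96. On Cast, the segment took 0.254% of the reads in the pool, and 0.715%, 1.43%, 1.71%, 1.55% and 1.27% in clones 3, 4, 8, B52 and E9-3. The clones were thus 2.82-, 5.63-, 6.74-, 6.11- and 4.98-fold higher than the pool. A difference of at least 2-fold above the pool in all 5 clones was seen for 6 of the 74 segments compared on Cast (8.11%). On B6, Igkv10-96 took 3.14% of the reads in the pool, and 1.22%, 1.38%, 3.59%, 0.976% and 1.43% in clones 3, 4, 8, B52 and E9-3. All but clone 8 were at least 2-fold lower than the pool, which held in at least 4 clones for 14 of 96 segments on B6 (14.6%). Of the 69 segments compared on both alleles, Igkv10-96 was the 1 with both patterns (1.45%), a combination chosen after its values were seen. With the time course library of clone 4 at 48 h in place of the other, 3 clones were at least 2-fold lower on B6 and Igkv10-96 no longer met it. With only 1 library of the pool, these ratios have no test.

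**Figure D2:**
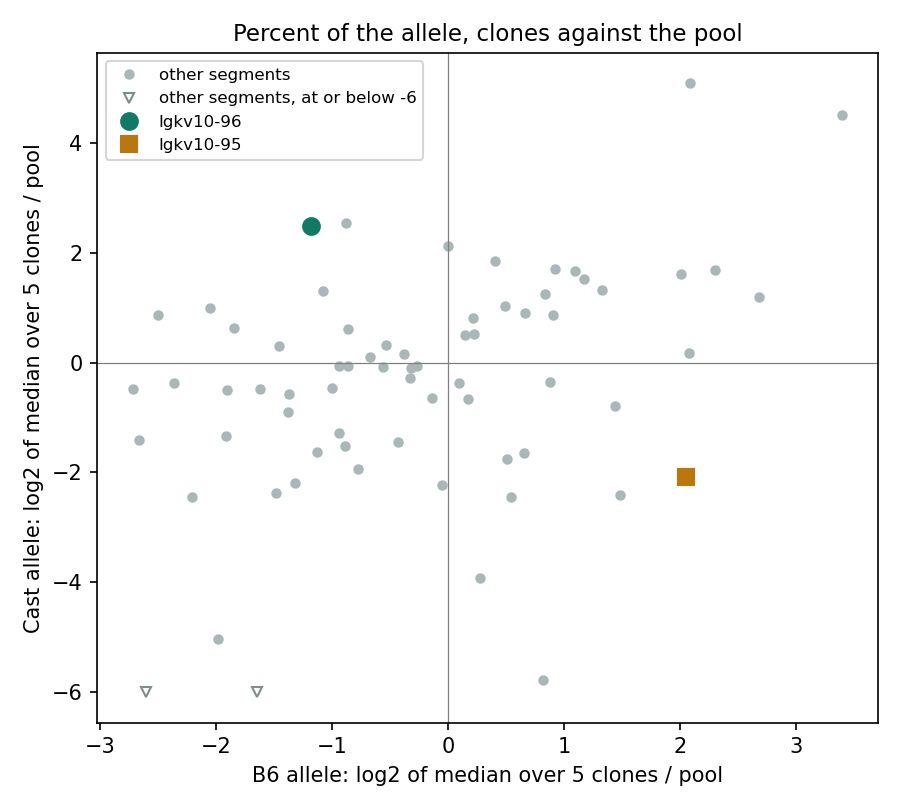
Log2 ratio of the median percent of the allele over the 5 clones to that in the pool, B6 allele on the x axis and Cast allele on the y axis, for 69 segments. Igkv10-96 lies at -1.18 on B6 and 2.49 on Cast, and Igkv10-95 at 2.05 and -2.09. Open triangles are segments at or below -6.

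Igkv10-95, the member on the strand of Cκ, was low in the pool and higher in the clones. In clones 3, 4, 8, B52 and E9-3 it made up 0.768%, 1.07%, 0.683%, 1.87% and 0.779% of the reads, a mean of 1.03% ± 0.491 (SD, n = 5), against 0.314% in the pool (0.295% to 0.334%). All 5 clones lay above the pool, with clone B52 the highest, followed by clone 4. The intervals of clones 3 (0.727% to 0.811%), E9-3 (0.691% to 0.877%) and 8 (0.638% to 0.731%) overlapped, those of clones 3 and 8 only at their edges. Overlap is no test of a difference, and none was made.

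The allelic origin of Igkv10-95 differed between clones. Clones 3, B52 and E9-3 had a B6 share of 95.9%, 99.0% and 98.1%, with 52, 13 and 5 Cast reads. It was 82.5% in clone 4 and 50.4% in clone 8, with 121 and 403 Cast reads. The pool, at 63.0% (60.0% to 65.9%), lay between clone 8 and clone 4. Igkv19-93, which lies beyond Igkv10-94 towards Cκ, was high and low in the same libraries of the 48 h table. Its B6 share was 94.1%, 96.3% and 96.8% in clones 3, B52 and E9-3, 88.96% in clone 4, 47.8% in clone 8 and 49.2% in the pool. In clone 4 at 12 h the pair stood apart, with 0% for Igkv10-95 and 99.4% for Igkv19-93. Igkv10-96, on the other side of Igkv10-95, did not share it and had its lowest B6 share in clone B52 (54.7%).

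On the B6 allele, Igkv10-95 was higher than in the pool in every clone, by 4.17-, 3.57-, 1.59-, 8.18- and 4.13-fold in clones 3, 4, 8, B52 and E9-3. At least 4 clones were 2-fold or more above the pool for 10 of 96 segments on B6 (10.4%). On the Cast allele, the same segment took 0.273% of the reads in the pool, 0.662% in clone 4 and 0.912% in clone 8, but 0.0643%, 0.0550% and 0.0315% in clones 3, B52 and E9-3. Clones 4 and 8 therefore lay above the pool and the other clones below it. In the time course library of clone 4 at 48 h the value was 0.0784%, below the pool, so that clone 4 changed sides with the library. Over the libraries of the 48 h table, the median ratio of 0.236 turned to 1.31 without clone 3 and to 1.33 without clone B52 or clone E9-3.

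**Figure D3:**
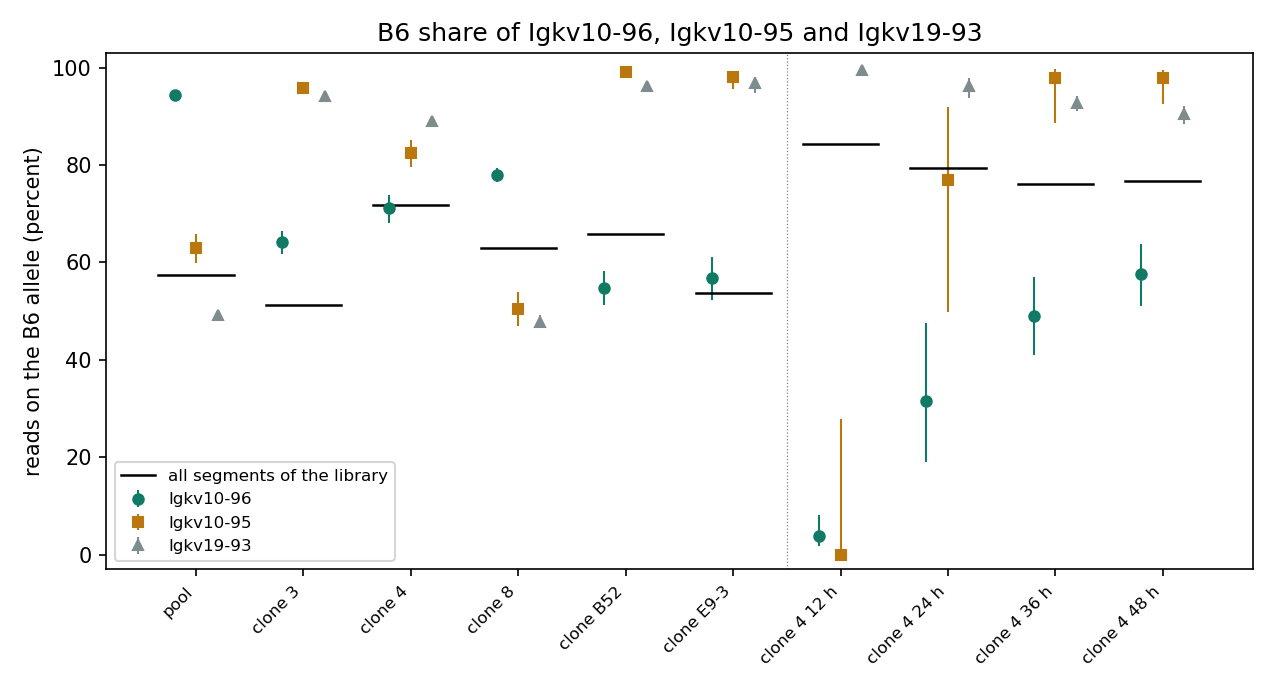
B6 share (percent of a segment's reads on the B6 allele, with 95% Wilson intervals) of Igkv10-96, Igkv10-95 and Igkv19-93, the next segment beyond the family, in each library, with the share over all segments as black lines. Igkv10-95 and Igkv19-93 were above 94% in clones 3, B52 and E9-3, whereas Igkv10-96 was between 54.7% and 64.1% there, and at 12 h Igkv10-96 stood at 3.82% beside 99.4% for Igkv19-93.

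Igkv10-94 was read rarely and from the B6 allele alone. It had 209 B6 reads in the pool (0.0651% of the library), 14 in clone 4 (0.0216%) and 16 in clone 8 (0.0134%), and 0 in clones 3, B52 and E9-3 and in the 4 libraries of the time course. A count of 0 allows up to 3 reads, equal to 0.00181%, 0.00434% and 0.00875% of the library in clones 3, B52 and E9-3. The levels of clones 4 and 8 lie above these limits, whereas at 12 h the limit of 0.173% is above the level of every library with reads. All 5 clones were at least 2-fold below the pool on B6, as for 4 of 96 segments (4.17%). The pattern on B6, with reads in the pool and clones 4 and 8 and none in the other clones, was shared by 2 of 102 segments (1.96%), the other being Igkv3-5. No Cast read of Igkv10-94 was found in any of the 10 libraries, which in the pool allows up to 0.00219% of the Cast reads. This held for 14 of the 102 segments read on B6 at 48 h (13.7%). Whether the alignment divided Cast reads between Igkv10-94 and Igkv10-95 correctly was not tested.

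Within the family, Igkv10-95 led on the B6 allele in clones 3 and B52 and Igkv10-96 in clone 8, whereas Igkv10-96 led in all 5 clones on Cast. On B6 the intervals of Igkv10-96 were 49.5% to 55.1% in clone 4 and 45.9% to 54.4% in clone E9-3, so that no leader was clear there. Among the B6 reads of the family, Igkv10-96 held 87.3% in the pool, and 45.9%, 52.3%, 86.3%, 25.7% and 50.2% in clones 3, 4, 8, B52 and E9-3. Among the Cast reads it held 48.2% in the pool, and 91.7%, 68.3%, 65.2%, 96.6% and 97.6% in those clones. Clones 3 and B52 thus had more Igkv10-95 than Igkv10-96 on B6 and the reverse on Cast.

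The difference between the alleles was tested over the 5 clones with edgeR's quasi-likelihood test, with the clone as a block and each allele scaled to its own reads. Of 94 segments tested, 43 differed between the alleles at an adjusted p-value under 0.05 (45.7%), 27 of them higher on B6 (28.7%) and 16 higher on Cast (17%), and the median log2 ratio of B6 to Cast was 0.70. Igkv10-96 had a log2 ratio of 0.34 with a standard error of 0.43 and an adjusted p of 0.518, and the sign turned without clone 3 (-0.13). Its B6 share was above 50% in 5 of 5 clones before scaling. Igkv10-95 had a log2 ratio of 3.45 with a standard error of 1.32 and an adjusted p of 0.0693, and the summed family one of 0.81 with an adjusted p of 0.136, so that neither passed the threshold. For Igkv10-95 the call depended on the setting. The adjusted p was 0.0200 with both alleles scaled to the whole library, which moved the median of all segments to 1.27, and 0.0208 without clone 8. DESeq2 gave an adjusted p of 0.000164. Igkv10-94 was left out by the filter on low counts, and with 0 Cast reads a fitted ratio between its alleles would be no bound, so that none is given.

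Whether the clones shared a B6 share was tested with a Monte Carlo chi-square permutation test at the 104 segments that had 20 or more reads in the clones together. The libraries differed at 80 segments (76.9%), so that a call is common here. Igkv10-96, with B6 shares from 54.7% to 78.0%, and Igkv10-95, with shares from 50.4% to 99.0%, each gave p = 0.0001 in this permutation test, the smallest its draws can give, and an adjusted p of 0.000149. When counts were first divided by 18.8, the mean chi-square of the B6 share between both clone 4 libraries at 48 h, 40 segments were called (38.5%), and both members were among them in this permutation test, with adjusted p-values of 0.0169 for Igkv10-96 and 0.000371 for Igkv10-95. Igkv10-94 was on B6 in all 30 of its reads in the clones, so that its B6 share could not differ between them.

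Each member's B6 share was also compared with that of all other reads of its library by Fisher's exact test, for which 94.1%, 88.3%, 92.1%, 85.4% and 84.2% of segments were called in clones 3, 4, 8, B52 and E9-3. Igkv10-96 was above the rest by 13.1 percentage points in clone 3 and 15.6 in clone 8, and below it by 11.2 in clone B52 (-11.2). In clone 4 it differed by -0.70 points (adjusted p = 0.661 by Fisher's exact test) and in clone E9-3 by 3.14 points (adjusted p = 0.212 by Fisher's exact test). Igkv10-95 was above the rest by 45.1, 10.9, 33.8 and 44.8 points in clones 3, 4, B52 and E9-3, and differed by -12.5 points in clone 8. With counts divided by the excess variation, the calls in clones 3 and 8 held for Igkv10-96 and those in clones 3, B52 and E9-3 for Igkv10-95. In the pool, where 96% of the segments were called, Igkv10-96 stood 37.7 points above the rest, Igkv10-95 5.61 points and Igkv10-94 42.6 points. With divided counts the pool calls of Igkv10-96 and Igkv10-94 held and that of Igkv10-95 did not. Igkv10-94 was also above the rest by 28.3 points in clone 4 and 37.1 in clone 8. These differences rest on 14 and 16 reads, all on B6, and neither was called with divided counts. With no Cast read, Igkv10-94 met the read minimum of this test only through B6, in the pool as well. Clones 3, B52 and E9-3, without a read of it, were not tested. No p-value is therefore given for Igkv10-94.

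In clone 4 over time, Igkv10-96 started as the leading segment of the Cast allele. At 12 h it had 151 of 274 Cast reads, or 55.1% (49.2% to 60.9%). The later libraries had 26 of 241 (10.8%), 73 of 1690 (4.32%) and 99 of 2550 (3.88%). It was first among the Cast segments at 12 h and 24 h and sixth at 36 h and 48 h, of 15, 25, 56 and 60 segments with at least 3 reads. As the segment was singled out for this lead, its Cast values and B6 shares at 12 h are given without a test. On the B6 allele its reads at 12, 24, 36 and 48 h were 6 of 1463 (0.410%), 12 of 933 (1.29%), 70 of 5402 (1.30%) and 134 of 8408 (1.59%). Over the whole library it made up 9.04% at 12 h (7.78% to 10.5%), 3.24% at 24 h, 2.02% at 36 h and 2.13% at 48 h, against 0.973% to 2.89% in the clones of the 48 h table.

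The B6 share of Igkv10-96 at the 4 times was 3.82% (1.76% to 8.09%), 31.6% (19.1% to 47.5%), 49.0% (40.9% to 57.1%) and 57.5% (51.1% to 63.7%), while that of the whole library was 84.2%, 79.5%, 76.2% and 76.7%. Neighbouring libraries from 24 h on were not told apart by Fisher's exact test, with an adjusted p of 0.410 between 24 h and 36 h and of 0.682 between 36 h and 48 h. In these comparisons 1.54% and 2.33% of segments were called.

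Igkv10-95 was also on the Cast allele at 12 h and on B6 later. It had 0 B6 and 10 Cast reads at 12 h, 10 and 3 at 24 h, 45 and 1 at 36 h and 91 and 2 at 48 h. Its B6 share was thus 0% (up to 27.8%), then 76.9% (49.7% to 91.8%), and 97.8% in both later libraries. The difference between 12 h and 24 h had an adjusted p of 0.00292 by Fisher's exact test, in which 12.5% of 32 segments were called, and the steps from 24 h to 36 h and from 36 h to 48 h had adjusted p-values of 0.342 and 1 by the same exact test. The call between 12 h and 24 h rests on 10 and 13 reads of Igkv10-95. Against the other reads of the 12 h library, the Igkv10-95 share differed by -84.7 points, where 10 of 21 segments were called by Fisher's exact test. Igkv10-95 just met the minimum of 10 reads, and only through Cast, where it was high, so that no p-value is given. With counts divided by the excess variation it was not called. Igkv10-94 had no read at any time.

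**Figure D4:**
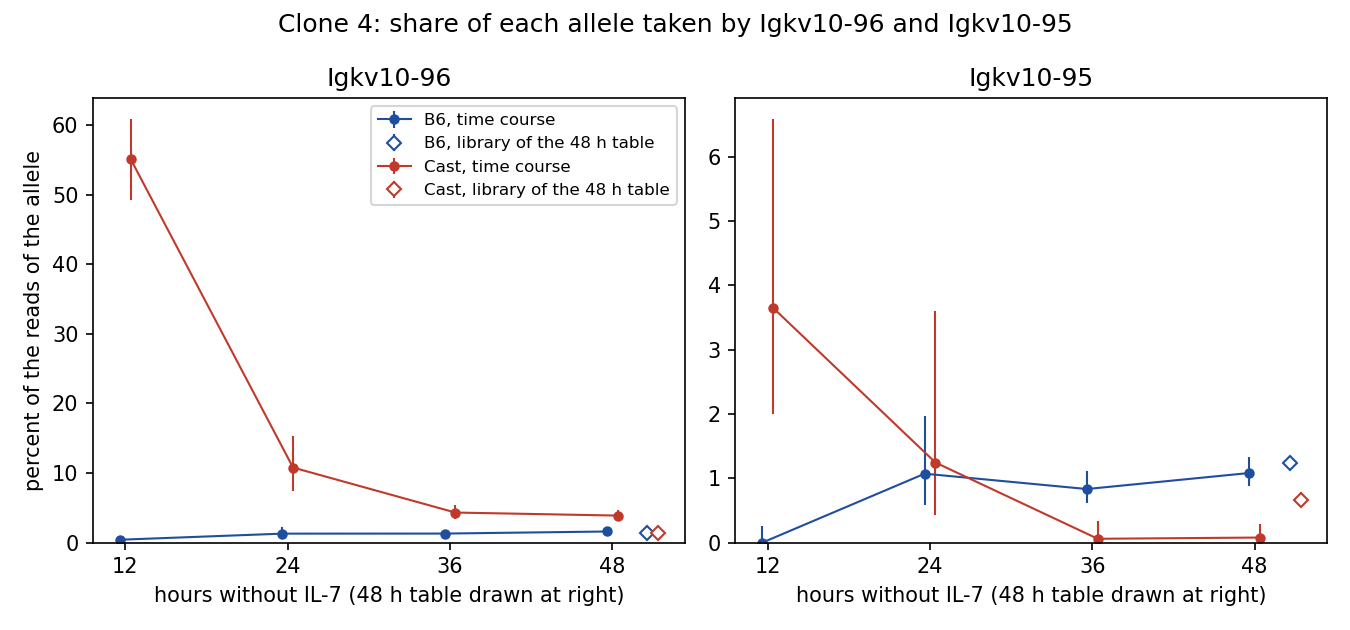
Percent of the reads of each allele taken by Igkv10-96 and Igkv10-95 in clone 4 against hours without IL-7 (filled points, 1 library each, with 95% Wilson intervals), with the library of the 48 h table as open diamonds at the right. Igkv10-96 on Cast came down from 55.1% to 3.88%, and Igkv10-95 on Cast from 3.65% to 0.0784%, whereas the B6 values of both were below 2% throughout.

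The libraries at 12 h and 48 h were compared as percent of the allele by Fisher's exact test. On B6, 7 of 71 segments were higher at 12 h (9.86%) and 40 were lower (56.3%), and on Cast 4 of 47 were higher (8.51%) and 14 lower (29.8%). Igkv10-96 on B6 was lower at 12 h by 1.85 on the log2 scale (-1.85), from 6 and 134 reads. Igkv10-95 on B6 was at 0 against 1.08%. With 3 reads as the limit at 12 h, up to 0.205% is allowed, which is 5.28-fold below the 48 h value. The Wilson interval at 12 h reached higher, to 0.262%. Both members passed the minimum of 10 reads on B6 only through the 48 h library, where they were high. No p-value is therefore given for these B6 differences. On Cast, Igkv10-95 took 3.65% at 12 h (1.99% to 6.59%) and 0.0784% at 48 h, from 10 and 2 reads, a log2 ratio of 5.28. It passed the minimum of 10 reads only through the 12 h library, where it was high, so that no p-value is given for this ratio. Against the clone 4 library of the 48 h table the log2 ratio was 2.52, with an adjusted p of 0.000131 by the same exact test.

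These B6 differences stood beside a single dominant segment. Igkv19-93 held 1018 of the 1463 B6 reads at 12 h (69.6%) and 10.5% at 48 h. Without it in the totals, Igkv10-96 on B6 differed between 12 h and 48 h by -0.29 on the log2 scale, with an adjusted p of 0.814 by Fisher's exact test. Igkv10-95 on B6 kept an adjusted p of 0.0288 in that exact test, but the bound on its difference came down to at least 1.79-fold lower at 12 h. With the counts divided by 26.9, the excess variation between the 2 libraries of clone 4 at 48 h, none of these Igkv10-96 and Igkv10-95 differences was called by Fisher's exact test. With so few reads in the early libraries, the number of separate joins behind the 151 Cast reads of Igkv10-96 is unknown.

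The 2 libraries of clone 4 at 48 h show how far the members vary between libraries of the same clone and time. On B6, Igkv10-96 took 1.59% in the time course and 1.38% in the 48 h table (adjusted p = 0.184, Fisher's exact test), and Igkv10-95 took 1.08% and 1.23% (adjusted p = 0.341, Fisher's exact test). On Cast, Igkv10-96 took 3.88% and 1.43%, a log2 ratio of 1.45 with an adjusted p of 3.64e-14 by Fisher's exact test, and Igkv10-95 took 0.0784% and 0.662%, a log2 ratio of -2.76 with an adjusted p of 0.000115 by the same exact test. The libraries thus differed for both members on Cast and in opposite directions. Of the segments tested, 26% were higher and 36.5% lower in the time course on B6, and 33.8% and 21.1% on Cast. The B6 share was 57.5% against 71.1% for Igkv10-96 (adjusted p = 0.000446, Fisher's exact test) and 97.8% against 82.5% for Igkv10-95 (adjusted p = 7.13e-05, Fisher's exact test), where 30.6% of 98 segments were called. Differences between single libraries in the values above should be read against these gaps of 13.6 and 15.3 points.

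The segments around the family, those numbered 89 to 100 in the row of V segments, varied among themselves in their B6 share. Of 9 such segments, 8 had at least 10 reads in the pool, with B6 shares from 18.9% for Igkv1-99 to 79.3% for Igkv4-91, so that Igkv10-96 at 94.3% lay above all of them. In clone B52 the median of 7 neighbours was 89.7%, against 54.7% for Igkv10-96 and 99.0% for Igkv10-95. Of the 7 neighbours with at least 10 reads in each clone, 3 (Igkv14-100, Igkv19-93 and Igkv4-92) had their lowest B6 share in clone 8, as Igkv10-95 did, and 4 had it in clone 3. This tally was made after the values were seen. At 12 h, Igkv19-93 was the only neighbour with at least 10 reads.

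The segments most like each member were taken as the 3 with the highest Pearson's r of log2 percent of the library over the 10 libraries, which include 5 of clone 4 and differ widely in depth, so that r is a description. On B6 these were Igkv4-63 (0.853), Igkv12-89 (0.812) and Igkv4-61 (0.807) for Igkv10-96. For Igkv10-95 they were Igkv8-21 (0.931), Igkv8-30 (0.926) and Igkv4-70 (0.917), and for Igkv10-94 they were Igkv4-74 (0.912), Igkv3-5 (0.860) and Igkv4-80 (0.812). On Cast, Igkv10-96 was most like Igkv4-80 (0.941), Igkv4-73 (0.747) and Igkv10-95 (0.395), and Igkv10-95 was most like Igkv5-37 (0.678), Igkv4-80 (0.599) and Igkv19-93 (0.464). No member was among the 3 most like another on B6. Over the 6 libraries of the 48 h table alone, 1 of the 5 lists shared at least 2 of its 3 segments with these.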

How the data were processed

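RNA of 5 clones, a pre-B pool and a clone 4 time course was reverse transcribed from Cκ, ligated to an adapter and amplified. After trimming, the authors mapped the read pairs to a combined mm10 genome of both strains (bowtie2) and deposited raw HTseq-count counts for each Vκ segment and allele. Program versions are not given in the sources used here. Read lengths of 250 and 150 bases are stated without naming the libraries, and the ATAC-seq and nuclear RNA files were not used here. A read without a base that differs between B6 and Cast cannot be assigned to an allele, so that B6 shares depend on where such bases lie.

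The members and lists were chosen with earlier results of these data known. Named are the 3 members, the 3 segments most like each, Igkv19-93, and the extremes of the neighbours numbered 89 to 100. Depth ranged from 1174 to 320951 reads. Percents, 95% Wilson intervals, Fisher's exact tests (at least 10 reads) and Monte Carlo chi-square tests (9999 draws, at least 20 reads) were computed in SciPy 1.17.1, NumPy 2.4.6 and pandas 2.3.3 under Python 3.11.15, and sequences with Biopython 1.88 and pyfaidx 0.9.0.4. edgeR 4.0.16 (TMM factors, its filter on low counts) was run in R 4.3.3 on the counts with the clone as a block, and DESeq2 1.42.0 as an alternative. P-values were adjusted by Benjamini-Hochberg over all segments tested, with 0.05 as the threshold. Ratios to the pool used segments with at least 10 reads, and r used log2(percent + 0.01). Figures were drawn with matplotlib 3.10.9. The edgeR test, the chi-square test and Fisher's exact test between libraries were each tested on simulated counts. Log2 ratios between libraries added 0.5 reads to each count. Alternatives varied the scaling, filters, read minimums, totals, clones and libraries used, and the division of counts by the excess variation between libraries. Other folds against the pool and other clones in that comparison were chosen after seeing the data.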

Additional observations from a re-analysis of the deposited data

Results flagged for a closer look

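Over the 5 clones, 14 sets of values of the members and their sum were checked for a clone far from the others, by the gap to the nearest clone divided by the range, with Dixon's critical value of 0.71. Chance marks about 1 in 20 such sets, and 2 were marked, both for Igkv10-96 in clone 8. Its percent of the library was 2.89% there, with a gap of 0.78 of the range, and its percent of the B6 allele was 3.59%, with a gap of 0.825. The 2 values share the same B6 reads.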

How the results depend on the processing

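Of 258 combinations of a result and an alternative, 201 were alike, which means the same direction and side of the threshold for a test, a count within 1.5 times, or a value within its spread or interval. Among the counts taken as alike, the allele calls went from 43 to 57 in DESeq2 and those between the 2 libraries at 48 h from 99 to 77 with the deeper thinned. No paired analysis was possible because these libraries carry no replicate numbers to pair them by; the alleles of a clone were already paired by the clone block in edgeR. For the allele difference in edgeR, leaving out 1 clone moved Igkv10-96 between -0.13 and 0.45 and Igkv10-95 between 2.29 and 4.41 (adjusted p from 0.0208 to 0.285); Igkv10-96 was at 0.92 with whole-library scaling (adjusted p = 0.119), 0.82 with the pool added and 0.04 without the filter, and Igkv10-95 was at 3.92 with whole-library scaling and 3.42 in DESeq2. Against the pool, leaving out 1 clone moved the Cast median of Igkv10-95 between 0.219 and 1.33, and 1 clone had Igkv10-96 lower on B6 at a fold of 3. At the fold of 2 used in the text, 3 clones did with the time course library of clone 4, and 4 clones in place of 3 then had Igkv10-95 lower on Cast. Dividing counts by the excess variation lowered the calls between clones from 80 to 40, and those of 12 h against 48 h from 65 to 2, with those of Igkv10-96 on B6 (-1.85) and Igkv10-95 on B6 and Cast among the lost calls. The latter had log2 ratios of -4.99, which rests on the 0.5 reads added to 0 reads at 12 h and is no bound, and 5.28, from 10 and 2 reads. The Cast ratio passed the read minimum only through the 12 h library, and the B6 ratios of both members only through the 48 h library. Without Igkv19-93, 43 segments were called and Igkv10-96 on B6 was at -0.29. With 24 h in place of 12 h, 32 were called, Igkv10-96 on B6 was at -0.26 and Igkv10-95 on B6 at 0.047. With the deeper 48 h library thinned, Igkv10-95 on B6 turned to 0.13. Without Igkv19-93 among the other reads, the B6 share of Igkv10-96 in clone 4 differed by 0.053 points and that of Igkv10-95 at 24 h by 5.42. As a percent of the library or allele, Igkv10-96 on B6 in the pool was 1.80% or 3.14% (1.88% without Igkv19-93, 1.87% over functional segments), Igkv10-96 on Cast at 12 h was 8.69% or 55.1% (21.2% without Igkv19-93), and Igkv10-95 on B6 in clone B52 was 1.85% or 2.82%. For other reversed or lost calls the cause was not tested. Depth limits the 12 h and 24 h libraries most, where 3 reads are 1.09% and 1.24% of the Cast allele.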
